A study of Mus musculus with 16 samples.

Results

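The 38 genes described here are transcripts known as targets of type I or type II interferon. They were chosen by name, all 38 were among the 23946 genes of the table, and 35 passed the filter on low values. The unit is the FPKM, fragments of a gene scaled by its transcript length and by the mapped fragments of the library, and the filter asked for a value of at least 1 in 4 or more of the 16 libraries. Oas3, Cxcl9 and Cxcl10 did not pass it. The libraries hold polyA RNA from ventricular free walls of adult male mice of the inbred FVB strain, aged 10 to 13 weeks, with no engineered allele named. There were 4 libraries each of right ventricle (RV) after pulmonary artery banding, RV after sham operation, left ventricle (LV) after banding and LV after sham operation. The label of the operated group, PS, was read as banded, and the study compared these groups to describe failure of the pressure-loaded right ventricle. Values are given in label order, which for the sham groups is 1 to 4 and for the banded groups is PS_9552, PS_9553, PS_9561, PS_9564. The labels do not say whether libraries of a group came from separate animals, so p-values reflect how much these samples vary, and that variation may be technical.

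Interferons are secreted proteins that bind receptors on nearly every cell type of the heart. The receptors act through JAK kinases on STAT proteins, which enter the nucleus in pairs, with or without IRF9, and bind the interferon-stimulated response element (ISRE) or the gamma-activated sequence (GAS) in promoters. Type I interferon mainly acts through the ISRE and drives sensors and antiviral effectors, while type II interferon acts largely through the GAS and drives GTPases, antigen presentation and chemokines, with wide overlap. In heart tissue these genes are expressed by resident and infiltrating macrophages, endothelial cells, fibroblasts and cardiomyocytes. The RNA is from whole tissue, so fewer cells of a type and less RNA per cell cannot be told apart.

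A gene is said to have risen or fallen only where the adjusted p of the limma fit was below 0.05 in the same direction on both scales. The scales are the FPKM as deposited and the FPKM divided by a scale factor per library. Depth, estimated from the smallest steps of the FPKM, was 2.30e+06 to 5.45e+06 fragments in RV banded and 339656 to 1.36e+06 in RV sham libraries. It was 3.42e+06 to 8.93e+06 fragments in LV banded and 1.75e+06 to 4.20e+06 in LV sham libraries. A value of 0 therefore says least in the RV sham libraries. The ribosomal precursor Rn45s was listed at 0 in 5 libraries, all banded (RV PS_9561 and PS_9564, LV PS_9552, PS_9553 and PS_9561). Their scale factors were 1.22 to 1.28, against 0.840 to 1.02 in the other 11 libraries. The ventricular markers, such as Myl2 and Tnni3, were above 0 in every library. Pancreas markers, such as Ins2, summed to 66.3 to 155 FPKM in RV banded and 636 to 2134 FPKM in RV sham libraries, and to 25.9 to 59.7 FPKM in LV banded and 88.3 to 2088 FPKM in LV sham libraries. Of these 10 markers 3 to 6 were listed at 0 in each library. Of 5 tested, Ins1, Ins2, Gcg and Iapp fell in the right ventricle, beside 4.93% of all genes. Ins2 alone fell in the left, beside 0.298%. The part of these library differences in the results below was not tested.

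Of the 38 genes, 30 had a promoter in the RefSeq table for GRCm38.p6, a later build than the mm9 used for the FPKM. Each promoter runs from 250 bases before to 50 bases after the start site. The ISRE was searched on both strands as GAAA, any 2 bases and GAAA again. It was found for 17 of the 30 genes, in 17 of their 35 promoters, and in 3.44% of all 32851 promoters of that length. The GAS, searched as TTCNNNGAA, was found for 7 of the 30 genes, in 7 of their 35 promoters, and in 8.30% of all promoters. The promoters below belong to 4 of the genes called in a banding comparison, with the matches in capitals. They lie at chr4:40239776-40240075 on the minus strand for Ddx58, chr19:34550444-34550743 on the plus strand for Ifit2, chr19:34583279-34583578 on the plus strand for Ifit3 and chr2:122147437-122147736 on the plus strand for B2m.
Ddx58: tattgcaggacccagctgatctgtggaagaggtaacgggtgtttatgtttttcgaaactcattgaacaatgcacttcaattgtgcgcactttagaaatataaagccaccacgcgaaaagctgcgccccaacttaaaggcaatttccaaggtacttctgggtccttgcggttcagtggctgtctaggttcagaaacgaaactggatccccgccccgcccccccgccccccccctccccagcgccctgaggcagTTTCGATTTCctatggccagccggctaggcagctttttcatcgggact
Ifit2: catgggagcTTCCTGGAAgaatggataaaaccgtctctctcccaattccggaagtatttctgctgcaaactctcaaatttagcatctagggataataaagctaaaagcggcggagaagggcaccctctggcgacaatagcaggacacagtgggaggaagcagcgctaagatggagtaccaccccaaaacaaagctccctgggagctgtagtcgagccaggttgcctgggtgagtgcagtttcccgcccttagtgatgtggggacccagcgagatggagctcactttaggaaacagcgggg
Ifit3: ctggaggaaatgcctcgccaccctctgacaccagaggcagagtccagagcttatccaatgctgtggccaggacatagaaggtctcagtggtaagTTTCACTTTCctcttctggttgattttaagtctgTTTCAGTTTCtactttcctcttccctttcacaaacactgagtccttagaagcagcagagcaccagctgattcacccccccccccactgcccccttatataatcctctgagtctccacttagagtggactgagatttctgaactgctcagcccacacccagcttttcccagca
B2m: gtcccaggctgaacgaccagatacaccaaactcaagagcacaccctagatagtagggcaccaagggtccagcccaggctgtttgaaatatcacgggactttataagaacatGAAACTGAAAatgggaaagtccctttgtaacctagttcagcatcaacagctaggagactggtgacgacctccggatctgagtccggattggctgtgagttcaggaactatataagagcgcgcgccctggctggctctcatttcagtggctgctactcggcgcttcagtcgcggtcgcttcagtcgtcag
The match of Ddx58 starts 2 bases after the start site and is an ISRE on the opposite strand. Ifit3 holds ISRE matches at -156 and -122 and B2m holds 1 at -139, while the match of Ifit2 is a GAS at -241. A further window of Ifit2, not shown, at chr19:34550838-34551137 held neither sequence. The windows of Irf7 and Ifi44 held neither sequence in these letters. A match describes the letters of the window and is not evidence of binding.

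In the pressure-loaded right ventricle, 5 of the 35 genes rose and none fell. They were the RNA sensor Ddx58, the transcription factor Irf7 and the antiviral effectors Ifit2, Ifit3 and Ifi44. Of all 12100 genes tested, 10.5% rose and 4.93% fell (15.5% in either direction), so the share of 14.3% among interferon-stimulated genes is close to that of the whole transcriptome. The sign was positive for 32 of 35 genes on the rescaled values, with a median log2 change of 0.54, beside 58.4% of all genes positive with a median of 0.11. As deposited, the medians were 0.68 over the 35 genes and 0.26 over all genes. The median of the 35 genes depended on the scaling: it was 1.06 under TPM scaling (all genes 0.65), 0.31 with 27 of 35 positive after a correction for transcript length and GC content (all genes -0.01), and 0.33 with 29 positive without both PS_9561 libraries (all genes 0.10).

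Among the sensors of viral RNA, Ddx58, which encodes RIG-I, had 2.33, 2.83, 5.79 and 4.41 FPKM in RV banded libraries, against 1.55, 0.966, 1.04 and 1.20 FPKM in RV sham libraries. Every banded library lay above every sham library, and PS_9561 was the highest. The log2 change was 1.09 ± 0.29 (SE, n = 4 per group, limma adjusted p = 0.0159) as deposited and 0.96 ± 0.24 (limma adjusted p = 0.0116) rescaled. Ddx58 lost its call without RV banded PS_9561 (limma adjusted p = 0.0624) or without RV banded PS_9564 (limma adjusted p = 0.0502). Ifih1, the sensor MDA5, and Dhx58, a regulator of both sensors, did not pass the test, with log2 changes of 0.24 and 0.43 as deposited.

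Irf7, the transcription factor that amplifies type I interferon responses, had 7.29, 9.71, 18.04 and 7.42 FPKM in RV banded libraries, against 4.21, 3.22, 7.24 and 3.49 FPKM in RV sham libraries. The lowest banded library was just above the highest sham library, and on the rescaled values the groups overlapped. Its log2 change was 1.03 ± 0.33 (SE, limma adjusted p = 0.0381) as deposited and 0.87 ± 0.29 (limma adjusted p = 0.0472) rescaled. This call was lost in 11 of 16 fits that left out a library, with a limma adjusted p of up to 0.152. Stat2, a partner of IRF9 in the ISRE-binding complex, had 7.62, 5.38, 12.8 and 9.30 FPKM in RV banded libraries, against 5.13, 6.01, 4.18 and 5.19 FPKM in RV sham libraries, with overlap of the groups (limma adjusted p = 0.104 as deposited). Irf1, a transcription factor induced most strongly by type II interferon, had 19.7, 6.56, 23.2 and 17.7 FPKM in RV banded libraries, against 17.1, 27.0, 16.01 and 13.0 FPKM in RV sham libraries. The Irf1 groups overlapped widely, and the highest library was a sham one. Irf9, the DNA-binding subunit of that complex, and Usp18, which restrains signalling at the type I receptor, were not called, with log2 changes of 0.27 and 0.81 as deposited.

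The 3 effectors that rose were at 1.18 FPKM or less in every RV sham library. Ifit2, an RNA-binding inhibitor of translation, had 4.06, 2.71, 6.69 and 3.84 FPKM in RV banded libraries, against 0.940, 1.03, 0 and 1.18 FPKM in RV sham libraries. The lowest banded library was above the highest sham library. In sham 2 the value of 1.03 FPKM is below the 1.43 FPKM estimated for 1 fragment, which is worth about 0.753 FPKM in sham 3. The RV sham values of Ifit2 together amount to about 5.97 fragments, so the sham level is uncertain. The log2 change was 1.59 ± 0.32 (SE, limma adjusted p = 0.00390) as deposited and 1.48 ± 0.29 (limma adjusted p = 0.00277) rescaled. Ifit3, which partners other IFIT proteins, had 3.77, 1.27, 4.501 and 2.26 FPKM in RV banded libraries, against 0, 0.967, 0 and 0 FPKM in RV sham libraries. It was listed at 0 in RV sham 1, 3 and 4, where 1 fragment is worth about 0.476, 1.004 and 0.600 FPKM, so no fold is given. In sham 2 the value of 0.967 FPKM is below the 1.90 FPKM estimated for 1 fragment there. The difference on the log2(FPKM + 1) scale was 1.66 ± 0.32 (SE, limma adjusted p = 0.00318), and all banded libraries were above the sham ones.

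Ifi44, an interferon-induced protein that restrains some viruses, had 0.644, 1.62, 4.61 and 3.08 FPKM in RV banded libraries and was listed at 0 in all 4 RV sham libraries. In those sham libraries 1 fragment of Ifi44 is worth 0.271 to 1.09 FPKM, so the lowest banded value lies within what they could miss. The difference on the log2(FPKM + 1) scale was 1.66 ± 0.38 (SE, limma adjusted p = 0.00785) as deposited and 1.57 ± 0.33 (limma adjusted p = 0.00419) rescaled. Ifit2, Ifit3 and Ifi44 kept their calls in all 16 fits that left out a library. Among libraries with Rn45s above 0, which leaves 2 RV banded and 4 RV sham libraries, no interferon-stimulated gene was called. There the log2 differences were 1.34 for Ifit2 (limma adjusted p = 0.0878), 1.48 for Ifit3 (limma adjusted p = 0.0766) and 1.05 for Ifi44 (limma adjusted p = 0.0551). Those for Ddx58 and Irf7 were 0.71 (limma adjusted p = 0.208) and 0.82 (limma adjusted p = 0.218).

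**Figure D1:**
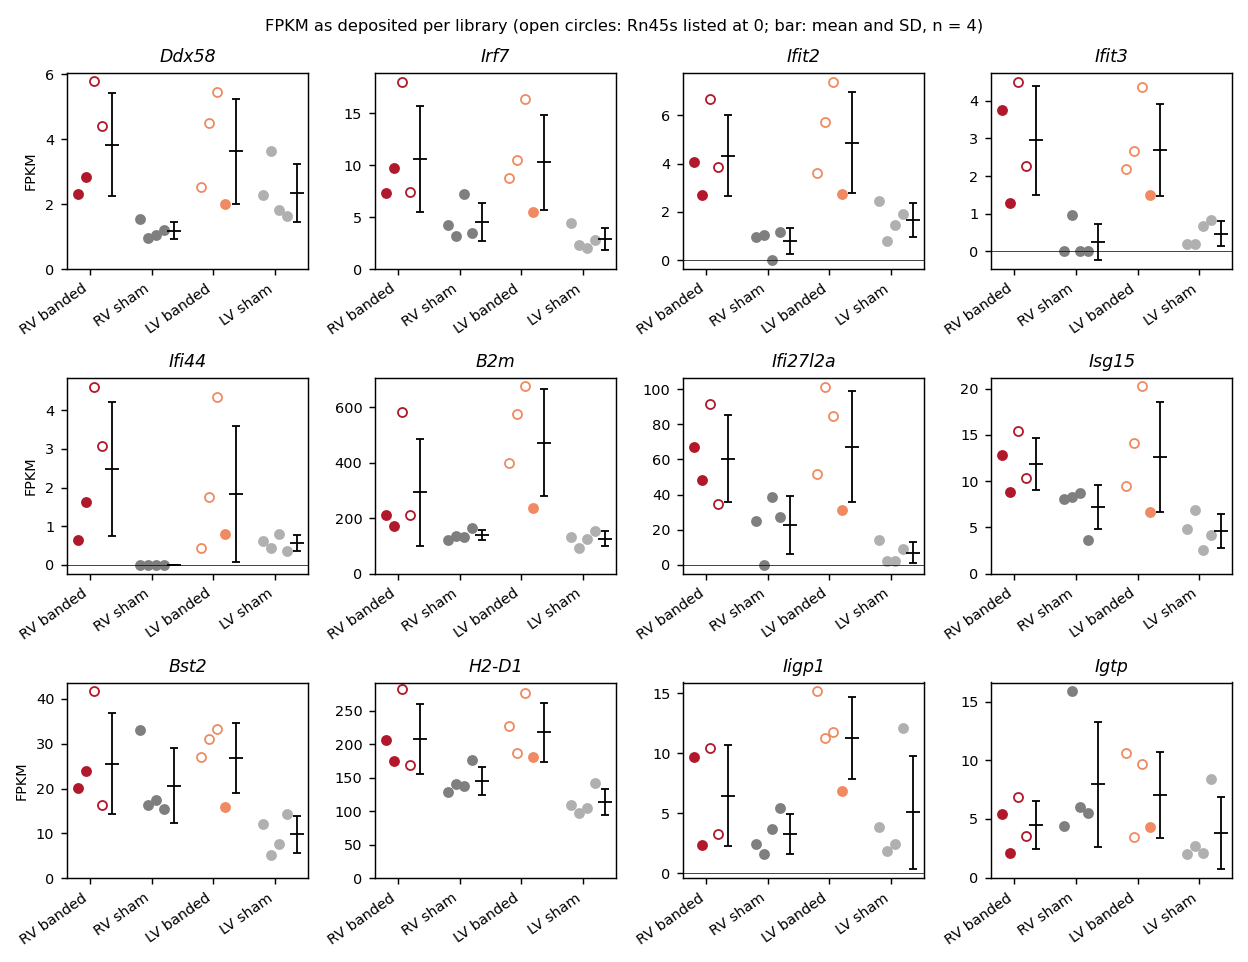
FPKM as deposited (vertical axes, from 0) of 12 interferon-stimulated genes in RV banded, RV sham, LV banded and LV sham libraries. Points are libraries, open where Rn45s was listed at 0, and the bar is the mean with its SD (n = 4); Ifi44 is listed at 0 in all RV sham libraries.

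The other effectors were not called in the right ventricle. Ifi27l2a, an interferon-induced mitochondrial protein, had 67.1, 48.3, 91.6 and 34.8 FPKM in RV banded libraries, against 25.2, 0, 38.9 and 27.1 FPKM in RV sham libraries. The groups overlapped, because banded PS_9564 was below sham 3, and the log2 change of 2.14 ± 0.87 (SE, limma adjusted p = 0.0946 as deposited) was the largest of the genes that were not called. Sham 2, where 1 fragment is worth about 11.15 FPKM, sets that size: without it the log2 change was 0.91 as deposited and 0.75 rescaled. Ifi27l2a and Ifi27 are similar genes, and in GRCm38.p6 the span of Ifi27 lies within that of Ifi27l2a on chromosome 12. How the authors assigned reads that fit both genes is not given in the sources used here. Ifi27 itself averaged 52.7 ± 5.84 FPKM in RV banded and 49.7 ± 23.9 FPKM in RV sham libraries (SD, n = 4 each). Isg15, a ubiquitin-like modifier, had 12.8, 8.87, 15.4 and 10.4 FPKM in RV banded libraries, against 8.03, 8.31, 8.73 and 3.66 FPKM in RV sham libraries. Its groups did not overlap as deposited and did overlap rescaled (limma adjusted p = 0.145 as deposited). Oas2, which senses double-stranded RNA and activates RNase L, had 4.23, 4.95, 14.4 and 6.54 FPKM in RV banded libraries, against 1.94, 2.12, 4.16 and 5.96 FPKM in RV sham libraries, with overlap. Bst2, which tethers budding viruses, had 20.2, 23.8, 41.8 and 16.3 FPKM in RV banded libraries, against 33.1, 16.3, 17.4 and 15.6 FPKM in RV sham libraries, and the groups overlapped.

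The interferon-inducible GTPases act on vacuoles that hold pathogens. None of 8 was called in the right ventricle, and 6 of 8 were positive on the rescaled values, with log2 changes from -0.80 for Igtp to 0.91 for Gbp3. Igtp, a GTPase of the IRG family, had 5.45, 2.13, 6.84 and 3.57 FPKM in RV banded libraries, against 4.44, 15.9, 5.98 and 5.47 FPKM in RV sham libraries. Sham 2, the library with the lowest estimated depth, was far above the rest (limma adjusted p = 0.324 as deposited for the comparison). Iigp1, of the same family, had 9.66, 2.40, 10.5 and 3.31 FPKM in RV banded libraries, against 2.42, 1.61, 3.72 and 5.41 FPKM in RV sham libraries. In these banded libraries PS_9552 and PS_9561 were high, and PS_9553 and PS_9564 overlapped the sham libraries.

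In antigen presentation, none of 4 genes was called in the right ventricle. B2m, the shared light chain of MHC class I molecules, had 210, 174, 582 and 210 FPKM in RV banded libraries, against 121, 138, 131 and 165 FPKM in RV sham libraries. Its groups did not overlap on either scale, and PS_9561 stood far above the other banded libraries (log2 change 0.90 ± 0.34 SE, limma adjusted p = 0.0732 as deposited). All libraries of RV banded were above all of RV sham on both scales for 5 of the 35 genes (Ddx58, Ifit2, Ifit3, Ifi44 and B2m), or 14.3%, beside 9.49% of all genes, and none had the reverse, beside 4.83%. H2-K1 and H2-D1, class I heavy chains, averaged 71.1 ± 30.5 and 208 ± 52.3 FPKM in RV banded, against 54.1 ± 7.79 and 145 ± 21.0 FPKM in RV sham libraries (SD, n = 4 each). Class I genes have near-identical copies, so their values are uncertain.

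In the left ventricle, which does not pump into the banded vessel, 2 of 35 genes rose and none fell. They were Irf7 and B2m. The share of 5.71% stands beside 2.44% of all 12100 genes that rose and 0.298% that fell (2.74% in either direction). The sign was positive for 33 of 35 genes rescaled, with a median log2 change of 0.50, beside 50.9% of all genes and a median of 0.01. As deposited the medians were 0.79 and 0.33. With only libraries where Rn45s was above 0, which leaves 1 LV banded library, the median of the 35 genes was 0.23 with 27 positive (all genes -0.01).

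Irf7 had 8.75, 10.5, 16.4 and 5.52 FPKM in LV banded libraries, against 4.42, 2.33, 2.07 and 2.82 FPKM in LV sham libraries. All banded libraries were above all sham libraries, with PS_9561 again the highest and PS_9564 the lowest. The log2 change was 1.48 ± 0.33 (SE, limma adjusted p = 0.00739) as deposited and 1.14 ± 0.29 (limma adjusted p = 0.0413) rescaled. B2m had 398, 574, 676 and 239 FPKM in LV banded libraries, against 134, 93.3, 125 and 155 FPKM in LV sham libraries. The B2m groups did not overlap either. Its log2 change was 1.80 ± 0.34 (SE, limma adjusted p = 0.00325) as deposited and 1.40 ± 0.29 (limma adjusted p = 0.0175) rescaled. In fits that left out a library, Irf7 lost its call in 8 of 16 and B2m in 5 of 16, with a limma adjusted p of up to 0.131 for Irf7 and 0.0711 for B2m. With Rn45s above 0 only LV banded PS_9564 is left beside 4 LV sham libraries, and neither was called (log2 change 0.77 and 0.93).

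Ddx58 and Ifi44, which rose in the right ventricle, overlapped between the groups here. Ddx58 had 2.52, 4.51, 5.44 and 2.02 FPKM in LV banded libraries, against 2.27, 3.64, 1.82 and 1.64 FPKM in LV sham libraries. Ifi44 had 0.432, 1.74, 4.33 and 0.799 FPKM in LV banded libraries, against 0.627, 0.424, 0.809 and 0.359 FPKM in LV sham libraries. Unlike in RV sham, Ifi44 was above 0 in every LV sham library. In the RV sham libraries 1 fragment of Ifi44 is worth 0.27 to 1.09 FPKM, so these LV sham levels lie within what they could miss.

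On the deposited scale alone 9 genes passed in the left ventricle: B2m, Bst2, H2-D1, H2-K1, Ifi27l2a, Ifit2, Ifit3, Irf7 and Isg15. On that scale 14.3% of all genes were called higher, and 81.7% of all genes were positive. Ifi27l2a had 52.0, 101, 84.6 and 31.3 FPKM in LV banded libraries, against 14.4, 1.98, 2.15 and 8.76 FPKM in LV sham libraries. No banded library reached down to a sham one, and the log2 change was 3.34 ± 0.87 (SE, limma adjusted p = 0.0182) as deposited but 2.98 ± 0.90 (limma adjusted p = 0.0732) rescaled. In LV sham 2 the value of 1.98 FPKM is below the 2.16 FPKM estimated for 1 fragment. In LV sham 3, at 2.15 FPKM, 1 fragment is worth about 1.12 FPKM, so the sham level and the size of the change are uncertain. Bst2 had 27.1, 31.1, 33.2 and 15.8 FPKM in LV banded libraries, against 12.1, 5.28, 7.58 and 14.2 FPKM in LV sham libraries. These groups were also apart, by a narrow gap between banded PS_9564 and sham 4. Ifit2 had 3.61, 5.71, 7.37 and 2.73 FPKM in LV banded libraries, against 2.44, 0.791, 1.47 and 1.90 FPKM in LV sham libraries. Ifit3 had 2.19, 2.67, 4.38 and 1.49 FPKM in LV banded libraries, against 0.184, 0.178, 0.663 and 0.831 FPKM in LV sham libraries. In LV sham 1 and 2 these values are below the 0.316 and 0.369 FPKM estimated for 1 fragment. The LV sham values of Ifit3 together amount to about 9.92 fragments, so that level is uncertain. For both IFIT genes the groups did not overlap, while the rescaled tests missed the threshold (limma adjusted p = 0.122 for Ifit2 and 0.0667 for Ifit3).

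H2-K1 had 73.9, 63.4, 97.1 and 55.9 FPKM in LV banded libraries, against 34.9, 31.6, 34.9 and 37.6 FPKM in LV sham libraries. H2-D1 had 227, 188, 276 and 180 FPKM in LV banded libraries, against 110, 97.3, 105 and 142 FPKM in LV sham libraries. The H2-K1 groups were apart on both scales and the H2-D1 groups only as deposited. Over both scales 9 of 35 genes, or 25.7%, had all LV banded above all LV sham libraries (Ifih1, Irf7, Ifit2, Ifit3, Mx2, Bst2, Ifi27l2a, B2m and H2-K1), beside 8.77% of all genes, and none had the reverse, beside 0.942%. Gbp2, a guanylate-binding protein, had 15.3, 9.17, 13.1 and 5.80 FPKM in LV banded libraries, against 2.22, 3.01, 3.44 and 10.7 FPKM in LV sham libraries. Sham 4 lay within the banded range. Iigp1 had 15.1, 11.3, 11.8 and 6.87 FPKM in LV banded libraries, against 3.88, 1.86, 2.46 and 12.1 FPKM in LV sham libraries, with sham 4 again among the banded values.

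**Figure D2:**
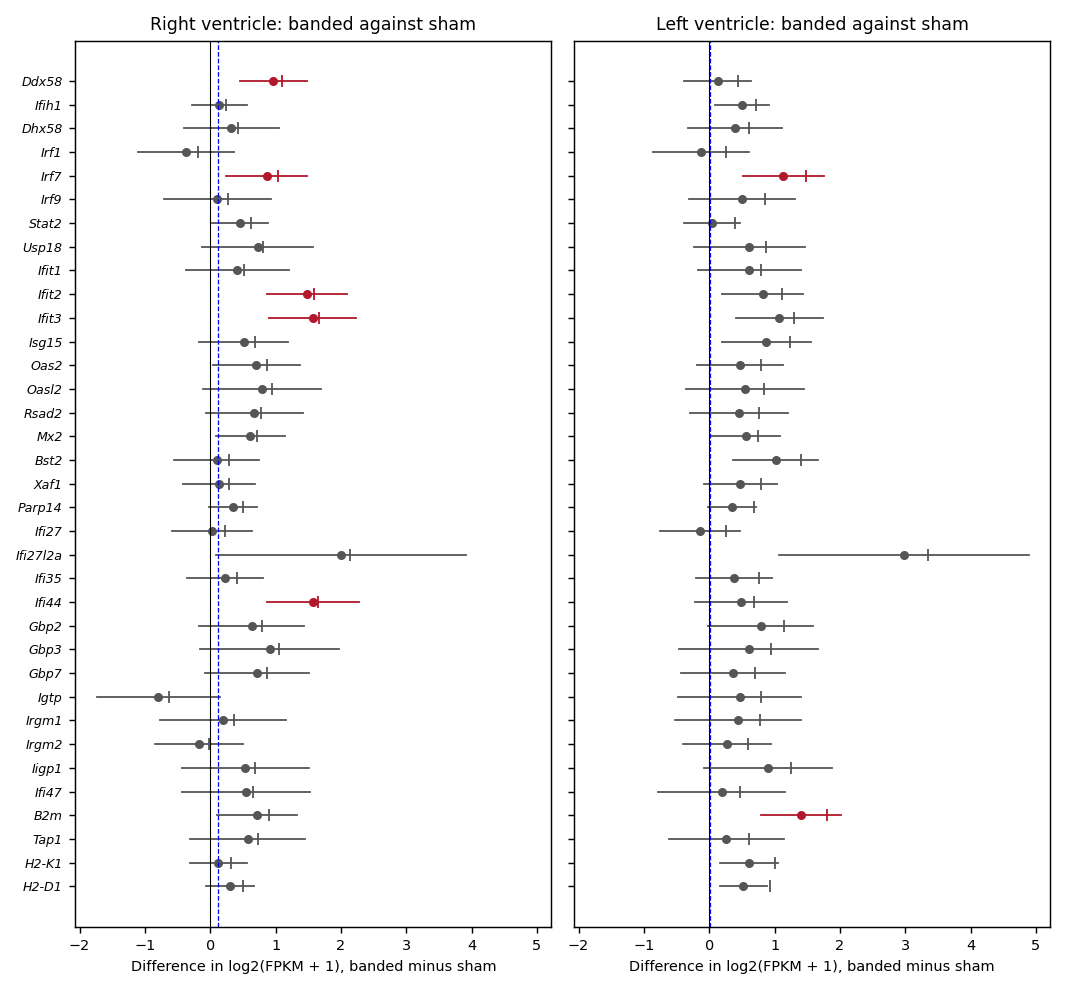
Difference in log2(FPKM + 1), banded minus sham (horizontal axes), of the 35 tested genes in the right (left panel) and left ventricle (right panel). Circles are the rescaled values with 95% intervals, ticks the values as deposited, red the genes called on both scales, and the dashed line the median of all genes, 0.11 for RV and 0.01 for LV.

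Whether banding acted differently on these genes in the 2 ventricles was tested as the difference of the effects, RV minus LV. No gene of the 35 was called in limma, beside 0.529% of all genes called higher and 3.45% lower (3.98% in either direction). At an unadjusted p below 0.05 there were 3 genes as deposited, 2 rescaled and 0 on both scales, beside 14.2% of all genes on both. The rescaled difference was 1.08 for Ifi44 (95% interval 0.09 to 2.08, limma adjusted p = 0.186), 0.83 for Ddx58 (0.11 to 1.56, limma adjusted p = 0.163) and 0.66 for Ifit2 (-0.21 to 1.54, limma adjusted p = 0.368). For Irf7 it was -0.27 (-1.15 to 0.61), and for B2m -0.69 (-1.55 to 0.18). These intervals are wide, so a gene called in 1 ventricle is not shown to differ from the other.

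No gene was called between the ventricles within an operation either. Between RV sham and LV sham, where 2.55% of all genes were higher in RV and 1.33% lower (3.88% in either direction), 2 of the 35 passed an unadjusted p below 0.05 on both scales in limma, Bst2 and H2-K1, beside 19.8% of all genes. Bst2 averaged 20.6 ± 8.36 FPKM in RV sham and 9.79 ± 4.09 FPKM in LV sham libraries, and H2-K1 54.1 ± 7.79 FPKM in RV sham and 34.8 ± 2.46 FPKM in LV sham libraries (SD, n = 4 each). All RV sham libraries were above all LV sham libraries for H2-K1, and below for Ddx58 and Ifi44, beside 4.74% of all genes above and 4.83% below. Ifi44 was listed at 0 in every RV sham library, and its LV sham levels lie within what those libraries could miss. Between RV banded and LV banded, where 0.182% of all genes were higher in RV and 1.39% lower (1.57% in either direction), 0 of the 35 passed an unadjusted p below 0.05 on both scales, beside 11.3% of all genes, and none had groups without overlap, beside 2.07% of all genes above and 4.79% below.

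The levels span a wide range, and FPKM are per transcript length. In RV banded libraries B2m, H2-D1, H2-K1, Ifi27l2a and Ifi27 had the highest means, at 294 ± 193, 208 ± 52.3, 71.1 ± 30.5, 60.5 ± 24.6 and 52.7 ± 5.84 FPKM (SD, n = 4). The next were Bst2, Ifi35 and Irf1, at 25.5 ± 11.3, 18.9 ± 3.99 and 16.8 ± 7.18 FPKM. At the low end were Cxcl9, Cxcl10 and Oas3, the chemokines that draw CXCR3-bearing T cells and a further RNA sensor, at 0.296 ± 0.103, 0.804 ± 0.574 and 0.045 ± 0.0555 FPKM. Among the 8 highest, the libraries of neighbours in this order overlap, apart from H2-D1 above H2-K1 and Ifi27 above Bst2. Cxcl10 was listed at 0 in all 4 RV sham libraries and at 1.03, 0, 1.34 and 0.841 FPKM in RV banded libraries. In those sham libraries 1 fragment of Cxcl10 is worth 0.719 to 2.87 FPKM, so the banded values lie within what they could miss. Genes at 5 FPKM or more numbered 11 to 28 of 38 in RV banded, 10 to 17 in RV sham, 13 to 26 in LV banded and 7 to 17 in LV sham libraries.

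Libraries of a group differed from each other in a shared way. Over the 35 genes the median deviation on the rescaled log2 scale was 0.42, 0.06, 0.68 and -0.00 in RV banded libraries, against -0.37, 0.05, -0.29 and -0.26 in RV sham libraries. In LV banded libraries it was 0.21, 0.24, 0.58 and -0.08, against -0.39, -0.41, -0.40 and -0.12 in LV sham libraries. Number PS_9561 was the highest banded library of its ventricle for 21 of 35 genes in each ventricle, and LV banded PS_9564 was the lowest for 22. Without both PS_9561 libraries, a choice made after seeing the data, 3 genes rose in the right ventricle (Ifit2, Ifit3 and Ifi44), beside 4.90% of all genes, and 1 in the left, beside 0.281%.

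Deviations were also taken by role. Over the 8 GTPases the median deviation was 0.87, -0.53, 0.52 and -0.50 in RV banded libraries, against -0.50, 0.44, -0.51 and -0.64 in RV sham libraries. LV banded libraries had 0.66, 0.25, 0.55 and -0.03, against -0.36, -0.50, -0.52 and 0.77 in LV sham libraries. For the GTPases RV sham 2 was the highest RV sham library, and LV sham 4 lay above every LV banded library. Over the 15 antiviral effectors no sham library of either ventricle was above 0, with RV sham 2 at -0.003, and RV banded PS_9561 was the highest of all libraries.

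**Figure D3:**
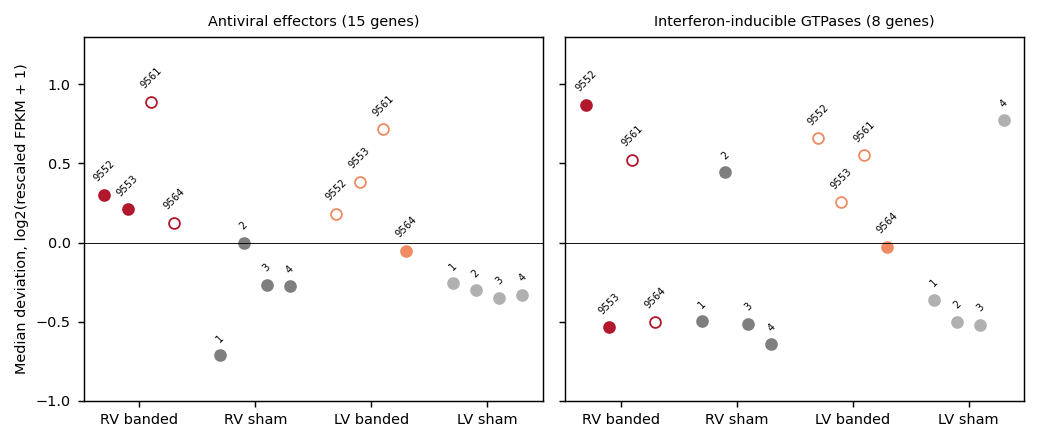
Median deviation from the mean of 16 libraries in log2(rescaled FPKM + 1) (vertical axis) over 15 antiviral effectors (left) and 8 interferon-inducible GTPases (right), for each library of RV banded, RV sham, LV banded and LV sham. Points carry the label numbers and are open where Rn45s was listed at 0; RV sham 2 and LV sham 4 stand above the other sham libraries for the GTPases, at 0.44 and 0.77.

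**Figure D4:**
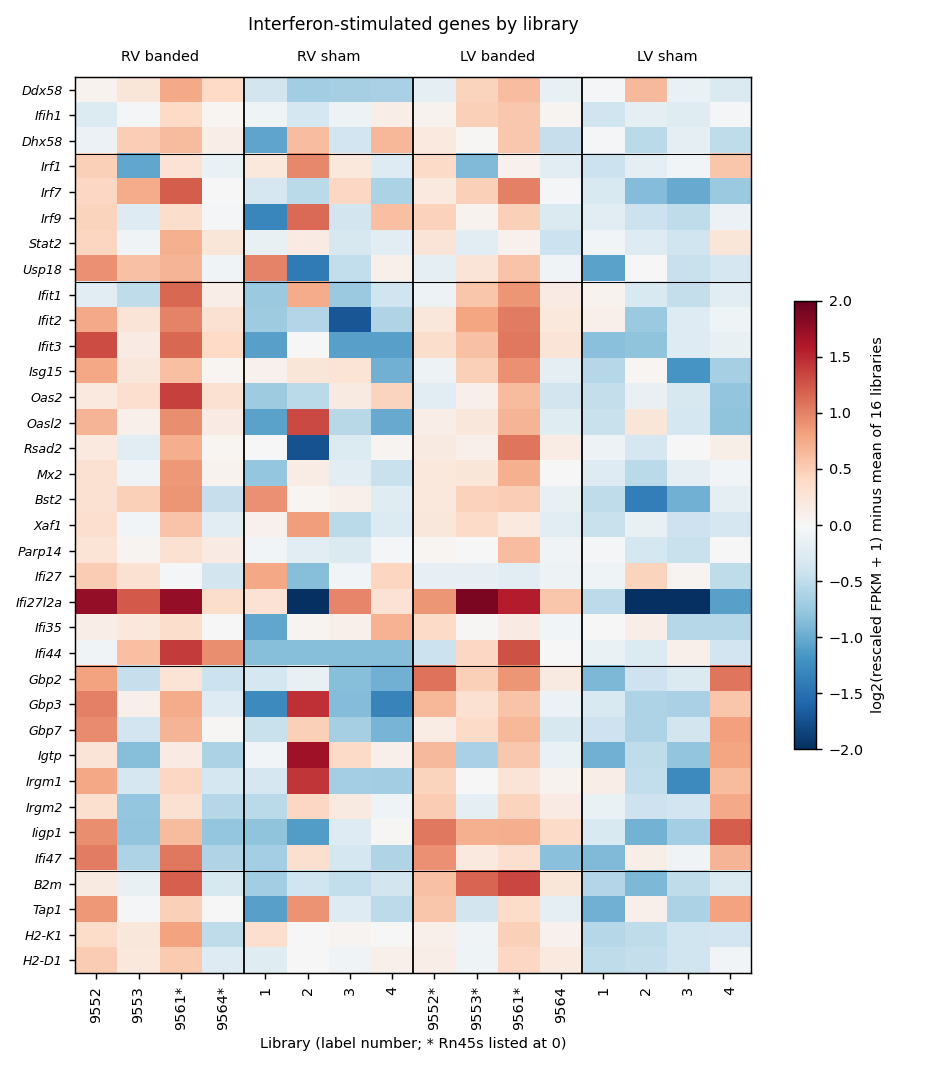
Deviation of log2(rescaled FPKM + 1) from each gene's mean of 16 libraries (colour, red above and blue below, capped at 2) for the 35 tested genes, ordered by role, with libraries of RV banded, RV sham, LV banded and LV sham as columns. Asterisks mark the 5 libraries with Rn45s listed at 0; the columns of PS_9561 are red for most genes in both ventricles.

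Other genes of the pathway came from lists of known pathway genes. None of 12 interferon ligands and related cytokines passed the filter, and 11 of them, Ifnb1 and Ifng included, were listed at 0 in all 16 libraries. A listed 0 in this table need not mean that a transcript is absent: Rn45s, at 0 in 5 libraries, had 44335 to 64943 FPKM in the other 11. Of 8 receptors and kinases, the kinases Jak1 and Jak2 rose in the right ventricle and none rose in the left. Tyk2, also a kinase of these receptors, was not called in either ventricle. The type I receptor subunit Ifnar1 and the type II receptor subunit Ifngr1 had log2 changes of 0.65 (limma adjusted p = 0.0600) and 0.05 (limma adjusted p = 0.861) as deposited in RV. Among transcription factors and feedback genes, Stat3, which carries signals of the interleukin-6 family, had 48.1, 45.05, 47.5 and 55.4 FPKM in RV banded libraries, against 24.8, 38.3, 22.9 and 29.7 FPKM in RV sham libraries. As deposited, all banded libraries of Stat3 were above all sham libraries, and on the rescaled values the groups overlapped. The log2 change was 0.76 (limma adjusted p = 0.0107) as deposited and 0.58 (limma adjusted p = 0.0196) rescaled. Irf8, a factor of myeloid cells, also rose in the right ventricle, by a log2 change of 1.10 (limma adjusted p = 0.0181) as deposited.

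The counts of these lists stand beside 10.5% of all genes that rose in the right ventricle and 2.44% in the left. Of 41 further interferon-stimulated genes 9 rose in the right ventricle and none fell, and 2, Slfn2 and Ly6e, rose in the left. Ifitm1, which blocks viral entry, had 7.90, 3.50, 3.96 and 0.732 FPKM in RV banded libraries and was listed at 0 in all RV sham libraries. Sp110, a nuclear body protein, had 1.92, 2.51, 6.14 and 3.84 FPKM in RV banded libraries, against 0.276, 0, 0.560 and 0.324 FPKM in RV sham libraries (log2 change 1.77, limma adjusted p = 0.000585 as deposited). Neither gene's groups overlapped. Both were also called lower in RV sham than in LV sham libraries, beside 1.33% of all genes. A 0 says least in the RV sham libraries, and the worth of 1 fragment was not estimated for either gene. Of 13 genes of nucleic acid sensing Tbk1, Traf3 and Aim2 rose in the right ventricle and none in the left. Of 18 partners in antigen presentation Pdia3 rose in the right and Calr and Cd74 in the left ventricle. Of 8 related chemokines and receptors Ccl8, a monocyte attractant, and Cxcl1, a neutrophil attractant, rose in the right ventricle. Ccl8 had 16.2, 4.52, 18.9 and 1.10 FPKM in RV banded libraries and was listed at 0 in all RV sham libraries. The worth of 1 fragment was not estimated for Ccl8 either.

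Markers of other cell types were counted against the same shares of all genes, and sums of markers are of FPKM as deposited unless called rescaled. Of 16 macrophage markers tested Cd14 rose in the right ventricle, and C1qb and Lyz2 rose in the left. Their sum over 17 genes was 217 to 363 FPKM in RV banded and 167 to 243 FPKM in RV sham libraries, and 269 to 452 FPKM in LV banded and 137 to 206 FPKM in LV sham libraries. Of 14 endothelial markers Pecam1 rose in the right, and Eng and Vwf in the left ventricle, with sums of 1835 to 2665 FPKM in RV banded and 1391 to 2031 FPKM in RV sham libraries, and 1981 to 2815 FPKM in LV banded and 1339 to 1620 FPKM in LV sham libraries. Of 2 dendritic cell markers tested Clec9a rose in the right ventricle, and none was called in the left. Over 8 genes they summed to 8.82 to 18.4 FPKM in RV banded and 7.06 to 9.95 FPKM in RV sham libraries. In the left ventricle the sums were 6.9 to 14.8 FPKM in LV banded and 7.54 to 12.9 FPKM in LV sham libraries. None of 3 neutrophil and 2 T and NK cell markers tested was called in either ventricle. Neutrophil markers summed to 1.91 to 17.7 FPKM in RV banded and 0.382 to 4.55 FPKM in RV sham libraries, and to 6.32 to 22.0 FPKM in LV banded and 0 to 3.91 FPKM in LV sham libraries. Of 14 T and NK cell markers in the table, 3 to 10 were listed at 0 in RV banded and 6 to 14 in RV sham libraries, and 0 to 5 in LV banded and 7 to 11 in LV sham libraries. They summed to 0.930 to 7.34 FPKM in RV banded and 0 to 20.6 FPKM in RV sham libraries, and to 3.36 to 6.51 FPKM in LV banded and 1.01 to 2.40 FPKM in LV sham libraries. B cell markers summed to at most 4.08 FPKM in any library.

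Of 11 fibroblast markers Col1a1, Col1a2, Col3a1, Pi16 and Ddr2 rose and Scara5 fell in the right ventricle, and Pi16 rose in the left. They summed to 910 to 1363 FPKM in RV banded and 874 to 1209 FPKM in RV sham libraries, and to 1040.4 to 1651 FPKM in LV banded and 631 to 881 FPKM in LV sham libraries. Of 9 ventricular cardiomyocyte markers Ttn rose and Myl2, Myl3 and Tnni3 fell in the right ventricle, and Myl2 and Tnni3 rose in the left. Their sums were 28644 to 37951 FPKM in RV banded and 39400.1 to 43222 FPKM in RV sham libraries. In the left ventricle they were 51969 to 66400 FPKM in LV banded and 26361 to 40896 FPKM in LV sham libraries. As deposited there was no overlap in either ventricle. Rescaled, LV banded PS_9561 at 44577 was below LV sham 4 at 44876, and the RV groups stayed apart. Of 8 mural cell markers Rgs5 and Cspg4 rose in the right ventricle, with sums of 267 to 362 FPKM in RV banded and 208 to 230 FPKM in RV sham libraries, and none was called in the left, with 212 to 376 FPKM in LV banded and 198 to 253 FPKM in LV sham libraries. Of 3 erythroid markers tested Hba-a2 fell in the right and rose in the left ventricle, with sums over the 6 in the table of 210 to 511 FPKM in RV banded and 237 to 540 FPKM in RV sham libraries, and 494 to 1163 FPKM in LV banded and 131 to 249 FPKM in LV sham libraries. The part of these cells in the changes of the interferon-stimulated genes was not tested.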

How the data were processed

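PolyA RNA of 16 libraries in 4 groups of 4 was analysed. The authors deposited FPKM per gene and library; per the submitters' processing notes FastQC 0.11.5, STAR 2.5.3a, Cufflinks 2.2.1, Cuffdiff and R 3.3.1 were used with mm9, and no counts were analysed here. The authors' group values were not used.

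The 12100 genes with 4 or more of 16 libraries at or above 1 FPKM were tested as log2(FPKM + 1) with limma 3.58.1 in R 4.3.3, using a mean for each of 4 groups, a trend in the prior and Benjamini-Hochberg adjustment over all tested genes, threshold 0.05. The fit was repeated after division by a median-ratio scale factor over 8211 genes, and a call needed both scales. The pseudocount understates changes of low genes. Depth estimates assume fragments of 200 nt. The fit was tested on simulated data.

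The members, lists and tests were chosen with earlier results of these data known. Values in every library are given for called members at 5 FPKM or more and those with the largest changes, by rule; Ddx58, Ifit2, Ifit3, Ifi44, Isg15, Ifi27, Bst2, Oas2, Iigp1, Gbp2, H2-K1, H2-D1, Irf1, Stat2 and Cxcl10 were added after their values were seen. Pathway genes were named by the smallest p-values, and 1 of them is not reported here. The library numbers were not used as pairs: same-numbered RV and LV libraries correlated at -0.0964 to 0.160 over all genes, above 0.1 in 1 of 8 pairs. Alternatives were other scalings, pseudocounts, filters, priors, a block by number and omission of libraries.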

Additional observations from a re-analysis of the deposited data

Results flagged for a closer look

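In 72 groups of 4 libraries, made of 18 genes in 4 groups, 7 had a library set apart from the other 3 by a gap that took up most of the group's range. Chance sets apart about 1 in 20 groups, but most of these genes were named with their values known, so that rate is no fair comparison. The gap over the range was 1 for Ifit3 in RV sham, where a library had 0.967 FPKM and the others 0. It was 0.861 for Isg15 in RV sham, with the lowest library at 3.66 FPKM and the nearest at 8.03 FPKM. For Bst2 in RV sham it was 0.893, with 33.1 FPKM in the highest library and 17.4 FPKM in the nearest. B2m in RV banded gave 0.910, with 582 FPKM in PS_9561 and 210 FPKM in the nearest library.

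The GTPases gave the other gaps. Igtp had 0.865 in RV sham, with 15.9 FPKM in sham 2 and 5.98 FPKM in the nearest library, and 0.899 in LV sham, with 8.43 FPKM in sham 4 and 2.65 FPKM in the nearest. Gbp2 had 0.857 in LV sham, with 10.7 FPKM in sham 4 and 3.44 FPKM in the nearest.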

How the results depend on the processing

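No called gene changed sign under any alternative run, but medians over the 35 genes did. For the difference between the effects the median was -0.27 as deposited and -0.16 rescaled, but 0.21 under TPM scaling and 0.18 with Rn45s above 0. Between sham ventricles it was 0.14 as deposited, 0.09 rescaled and -0.27 under TPM scaling, and between banded ventricles -0.09 as deposited and 0.06 rescaled. In the right ventricle the count of all genes called, 1871, was 5833 under TPM scaling, 810 with only the libraries of the comparison, 393 with only libraries where Rn45s was above 0 and 1021 without both PS_9561 libraries. The 5 interferon-stimulated genes became 21, 4, 0 and 3 in the same order, and 1 (Irf7) with a filter at 5 FPKM. That filter removed Ddx58, Ifit2, Ifit3 and Ifi44 before testing. In the left ventricle the count of 331 genes was 1764 as deposited alone, 76 under TPM scaling, 531 with only its own libraries, 3 with Rn45s above 0 and 41 without PS_9561, and the 2 interferon-stimulated genes became 9, 0, 6, 0 and 1, and 1 with no filter. The difference between the effects gave 482 genes, and 733 as deposited alone, 754 under TPM scaling and 9 with Rn45s above 0. RV sham against LV sham gave 469 genes, and 1043 rescaled alone, 3027 under TPM scaling, 872 under quantile normalization, 40 with only its own libraries, 275 with Rn45s above 0 and 262 without PS_9561, with 1 interferon-stimulated gene under TPM scaling, with a pseudocount of 0.1 and with Rn45s above 0. RV banded against LV banded gave 190 genes, and 373 as deposited alone, 0 under TPM scaling, 4 with Rn45s above 0 and 50 without PS_9561. The cause was not tested.

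With a replicate block by library number, which met the bar for a pairing over all genes in 1 of 8 pairs, although over the 35 genes the 4 banded pairs correlated at 0.297 to 0.656, the counts were 178 for the difference, 108 between sham and 12 between banded ventricles, and 0 interferon-stimulated genes in each. Leaving out each library in turn gave 1172 to 1992 genes and 3 to 6 interferon-stimulated genes in the right ventricle, and 45 to 572 and 0 to 6 in the left. It gave 274 to 595 and 0 to 0 for the difference, 80 to 569 and 0 to 1 between sham, and 25 to 263 and 0 to 0 between banded ventricles. With each library corrected for its trends with length and GC, added after seeing the data, Ddx58 was no longer called in the right ventricle (limma adjusted p = 0.0717). Values under about 1 FPKM in RV sham libraries rest on a few fragments or none. So do the LV sham values of Ifi27l2a in sham 2 and 3 and of Ifit3 in sham 1 and 2.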

Other observations

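Across the 35 interferon-stimulated genes, deviations of same-numbered RV and LV banded libraries from their group means correlated at 0.297 to 0.656 (4 pairs), against -0.556 to 0.386 for banded libraries of different numbers (12 pairs). For sham libraries the values were -0.308 to 0.219 for the same number and -0.419 to 0.392 for different numbers. These correlations are across genes, which are not independent, and the labels do not say that a number marks a mouse.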
